A study of Homo sapiens with 6 samples.

Results

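The baseline transcriptome of SKOV3 cells carrying an empty lentiviral vector was described from 3 libraries, called Vector 1, Vector 2 and Vector 3 after their titles. A gene was counted as expressed, and is called a member, when its mean over these 3 libraries was at least 1 FPKM, that is, in fragments per kilobase of exon scaled to a total for the library. This rule kept 12541 of 58735 measured gene identifiers. SKOV3 is an established human ovarian adenocarcinoma line, known for amplification of ERBB2. In the study, SKOV3 cells received a lentivirus encoding TIPE2 (3 libraries) or the empty vector (3 libraries), and the protocol describes selection in 2 ug/ml puromycin for a week. All cells were grown in McCoy's 5A medium with 10% fetal bovine serum and antibiotics, and RNA was extracted as total RNA. The titles number them as biological repeats. Whether a pool or a clone of transduced cells was used, and whether each library had its own transduction, is not stated, so the spread given here is that between these 3 libraries and may be technical. There is 1 group and no contrast, so no p-value is given.

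Carcinomas of the ovary mostly resemble epithelia of the Mullerian tract, the embryonic duct that forms the oviduct and uterus, and are recognised by the transcription factors PAX8, SOX17 and WT1 and by surface proteins such as mesothelin and MUC16. Epithelial cells hold simple keratins, E-cadherin and tight junction proteins, whereas mesenchymal cells hold vimentin, N-cadherin and the ZEB, SNAI and TWIST repressors. Cultured carcinoma lines can express genes of both programmes at once. Housekeeping genes serve translation, energy supply and protein turnover in nearly every cell and usually make up most of the RNA.

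The 3 libraries held between 15983317 and 17375930 fragments assigned to genes, and between 12423 and 12711 genes reached 1 FPKM in each. TNFAIP8L2, which encodes TIPE2, was at 58.4, 47.2 and 48.8 FPKM in the TIPE2 libraries, against 0, 0.0476 and 0 FPKM in the Vector libraries, where 1 fragment in all was recovered. Vector 1 stood apart from the other 2 libraries. Over the members, the median absolute log2 difference was 0.25 between Vector 1 and Vector 2 and 0.25 between Vector 1 and Vector 3, against 0.13 between Vector 2 and Vector 3. The summaries of spread below are therefore given with and without Vector 1. Of all members, 42.0% were highest in Vector 1, 26.2% in Vector 2 and 31.8% in Vector 3, and 52.0% were higher in Vector 3 than in Vector 2; the counts for gene lists below stand against these shares. A chi-square of the fragments per degree of freedom was between 12.6 and 38.8 for the pairs of libraries, so they were not 1 library deposited more than once; it does not tell technical from biological spread.

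Expression was concentrated in few genes. The median member had 6.41 FPKM, 5361 members lay between 1 and 5 FPKM, and 23 reached 1000 FPKM or more. The 10 highest genes held 12.1% of all FPKM, and 449 genes made up 50%. Protein-coding genes were 10858 of the members, 86.6% of them, and held 91.8% of all FPKM. That was 54.4% of the 19951 protein-coding genes measured, and the counts of members in gene lists below stand against this share. By contrast, 6.65% of antisense genes and 4.14% of lincRNA genes reached 1 FPKM. At the threshold, ZNF230, ANKRD36 and ZNF714 lay just inside with means of 1.00013, 1.0004 and 1.00063 FPKM, and TBC1D32, NIPSNAP3B and a misc_RNA gene, RF00019, lay just outside with 0.999704, 0.999662 and 0.998912 FPKM.

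The 10 most abundant protein-coding genes served respiration, actin buffering, iron storage and calcium binding. MT-CO1, a subunit of cytochrome c oxidase encoded in mitochondrial DNA, had 5926, 5338 and 5357 FPKM in Vector 1, 2 and 3. MT-CO2 and MT-CO3, of the same enzyme, averaged 5307 ± 992 and 4886 ± 1067 FPKM, and MT-ATP6, of ATP synthase, averaged 3538 ± 118 FPKM (here and below, mean ± SD over the 3 libraries, n = 3). MT-ND4 and MT-ND1, of complex I, completed the mitochondrial genes of this group with 2070.3 ± 54.05 and 1986 ± 196 FPKM. Their spread was uneven, from a coefficient of variation (CV, the SD as a percentage of the mean) of 2.61% for MT-ND4 to 21.8% for MT-CO3. The nuclear genes were TMSB10, a thymosin that binds actin monomers, with 4694, 3510.2 and 2801 FPKM, the ferritin chains FTH1 with 3736, 2396 and 2211 FPKM and FTL with 3907, 2064 and 1705 FPKM, and S100A6, a calcium-binding protein, with 3031, 2474 and 2778 FPKM. All 4 were highest in Vector 1, and FTL had the widest spread, a CV of 46.2%, which was 13.5% without Vector 1. For FTH1, 62.4% of exon bases are shared with another gene, so its level is uncertain.

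The epithelial list, of 32 keratin, junction and epithelial regulator genes, had 24 members at 1 FPKM or more and a median of 5.57 FPKM, against 1.59 FPKM over all protein-coding genes. Simple keratins led it. KRT7, a keratin of ductal and glandular epithelia, had 384, 241 and 303 FPKM in Vector 1, 2 and 3. KRT8 and KRT18, partners in the keratin filaments of simple epithelia, had 279, 217 and 247 FPKM and 135, 93.2 and 92.8 FPKM. KRT19 had 199, 156 and 212 FPKM. KRT7 stood above KRT8 in all 3 libraries although their ranges overlapped, KRT8 stood above KRT19 in all 3, and KRT18 was below every one of them. Keratins have close paralogs and processed pseudogenes, so reads may have been split among copies and these levels are uncertain. The desmosomal genes DSG2, a cadherin, and JUP, a linker to the filaments, averaged 41.6 ± 9.61 and 35.1 ± 2.02 FPKM.

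EPCAM, an adhesion molecule widely used to mark carcinoma, had 7.21, 8.08 and 5.88 FPKM and stood above 53.2% of members. Other defining epithelial genes were low. CDH1, which encodes E-cadherin, had 0.676, 0.636 and 0.238 FPKM and was below 1 FPKM in every library. ESRP1, a splicing regulator of epithelia, ST14, a membrane protease, and OVOL1 and GRHL2, transcription factors that maintain epithelial genes, were below 0.1 FPKM. Among the members of the list, the tight junction gene CLDN4 had the widest spread, with 2.03, 0.847 and 1.59 FPKM (here and below, the most and least variable genes of a list are those of its members of at least 1 FPKM, by the CV). Basal keratins stood out on other lists: KRT14 had 292, 259 and 391 FPKM, a range that overlapped that of KRT7, and its usual partner KRT5 had 33.1, 31.4 and 34.5 FPKM. TP63, the transcription factor of basal epithelium, was at 0.3199 FPKM.

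**Figure D1:**
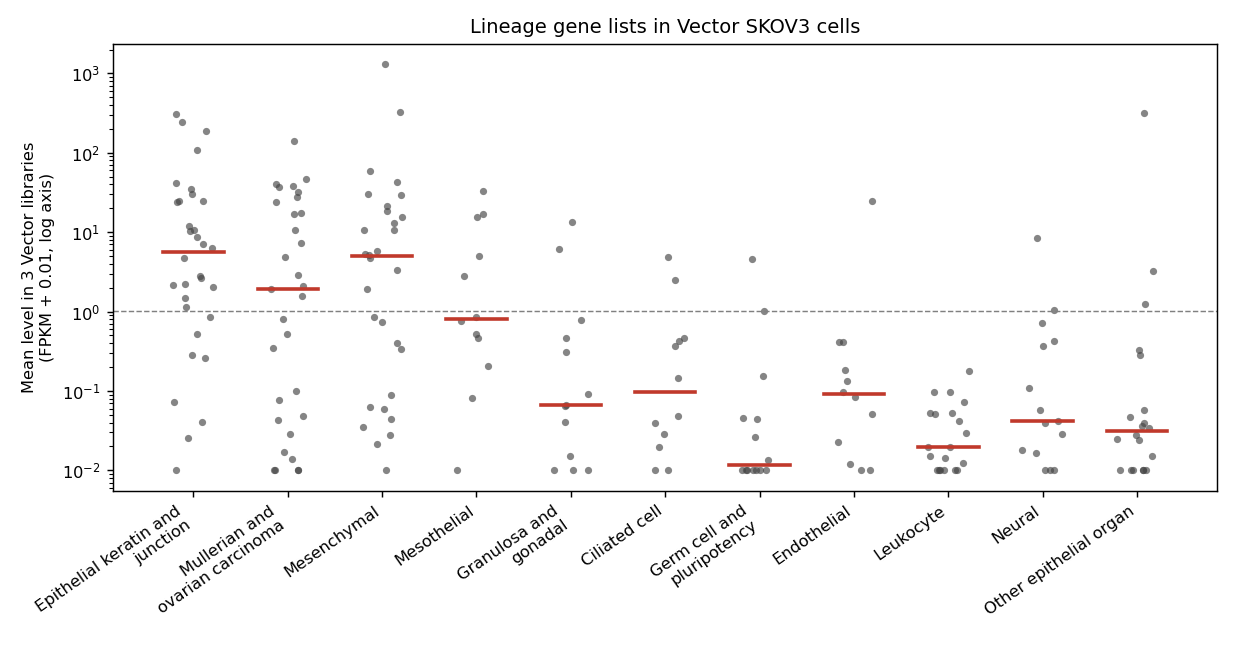
Mean level of each gene of 11 lineage lists over the 3 Vector libraries (FPKM + 0.01, log axis). Each point is a gene, red bars are list medians and the dashed line marks 1 FPKM. The epithelial, mesenchymal and Mullerian medians lie above the line, the last at 1.91 FPKM, and no leukocyte gene reaches it.

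Of 31 genes of Mullerian tissue and ovarian carcinoma, 17 were members. That was 54.8%, close to the 54.4% of all protein-coding genes. The list split between high and absent genes. SOX17, a transcription factor of the Mullerian tract, had 47.8, 35.4 and 38.3 FPKM in Vector 1, 2 and 3. PAX8, the factor most used to mark Mullerian origin, had 26.2, 31.9 and 38.6 FPKM. MECOM, a zinc finger factor often amplified in ovarian cancer, had 30.2, 41.3 and 41.8 FPKM. These 3 factors were close in level, and SOX17 was highest in Vector 1 whereas PAX8 and MECOM were lowest there. LHX1, a homeobox factor of the embryonic ducts, averaged 10.8 ± 4.95 FPKM. WT1, a marker of serous carcinoma, was below the threshold with 0.616, 0.3001 and 0.610 FPKM. EMX2, a homeobox factor of the female tract, was below 0.1 FPKM.

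Surface and secreted products of the same list also split. CD24, a glycoprotein that marks many carcinomas, led with 173, 153 and 94.6 FPKM, and the secreted phosphoprotein SPP1 followed with 56.7, 51.9 and 29.9 FPKM. The calcium-dependent membrane binder ANXA4 had 48.5, 39.8 and 24.1 FPKM. FOLR1, the folate receptor used as a drug target in ovarian cancer, and MSLN, which encodes mesothelin, averaged 23.7 ± 8.03 and 17.1 ± 5.899 FPKM. MUC16, which encodes the CA125 antigen, was far below 0.1 FPKM with 0.00403 FPKM, and the kallikrein proteases KLK5, KLK6, KLK7, KLK8, KLK10 and KLK11 were all below 0.1 FPKM. WFDC2, which encodes the marker HE4, was low and the most variable member, with 2.702, 0.812 and 1.196 FPKM and a CV of 63.7%, which was 27.0% without Vector 1. Among the 17 members, 10 were highest in Vector 1, and the list's median deviation from the mean of the libraries was 0.34 in Vector 1 on the log2(FPKM + 1) scale. After the shift shared by genes of like exon length was taken out, it was 0.19. Whether exon length accounts for the difference was not tested.

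Of 30 mesenchymal genes 18 were members, with a median of 4.94 FPKM over the list, against 54.4% of all protein-coding genes and their median of 1.59 FPKM. S100A4, a calcium-binding protein linked to motile cells, was the 21st gene of all by level, with 1641, 1127 and 1140.1 FPKM in Vector 1, 2 and 3. VIM, the intermediate filament of mesenchyme, had 349, 305 and 339 FPKM, a range that overlapped that of KRT7. The matrix genes COL6A2, FN1 and COL5A1 averaged 42.3 ± 3.24, 30.3 ± 10.3 and 29.1 ± 11.7 FPKM, and LOX, which crosslinks collagen, averaged 10.7 ± 2.88 FPKM. CDH2, which encodes N-cadherin, had 13.4, 15.02 and 17.6 FPKM, each above CDH1 in the same library. Among the repressors of epithelial genes, TWIST2 averaged 21.2 ± 1.51 FPKM, SNAI2 13.04 ± 2.10 FPKM, TWIST1 10.7 ± 2.97 FPKM and ZEB1 5.34 ± 1.695 FPKM, whereas ZEB2 was below 0.1 FPKM. Other matrix and fibroblast genes of the list were below 0.1 FPKM, among them COL3A1, DCN, POSTN, FAP and THY1. COL1A2 was the most variable member, with 1.46, 2.91 and 1.44 FPKM.

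**Figure D2:**
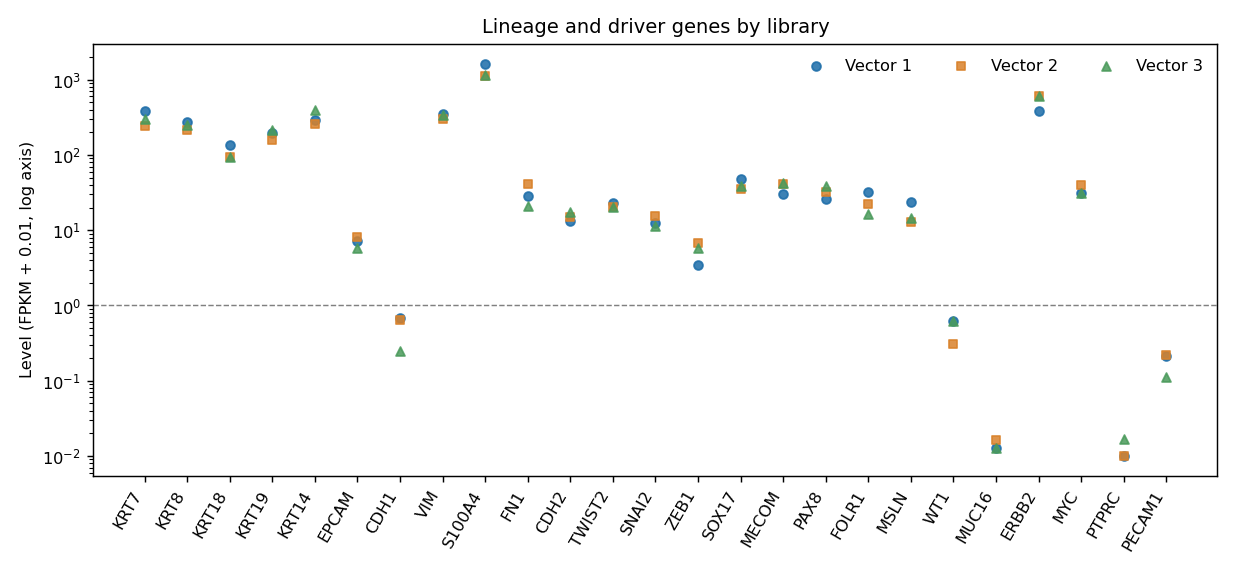
Level of 25 lineage and driver genes in each Vector library (FPKM + 0.01, log axis, dashed line at 1 FPKM). Points of 1 gene lie close together compared with the distance between genes; KRT7, VIM and ERBB2 are at 241 FPKM or more in every library, and CDH1 and WT1 lie below 1 FPKM in all 3.

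Markers of other cell types were mostly absent. In bulk RNA, fewer cells of a type and less RNA per cell cannot be told apart. No leukocyte gene of 20 and no Toll-like receptor gene of 10 reached 1 FPKM. PTPRC, the pan-leukocyte phosphatase CD45, was at 0, 0 and 0.00667 FPKM, and CD3D, CD14, CD68 and MS4A1 were below 0.1 FPKM. Of 12 endothelial genes 1 was a member, EGFL7, a secreted factor named for endothelium, with 35.5, 20.1 and 18.4 FPKM; CDH5 and VWF were below 0.1 FPKM. Among 13 granulosa and gonadal genes, AMH, the anti-Mullerian hormone, had 18.1, 9.95 and 11.9 FPKM and GATA6 had 5.97, 6.24 and 6.25 FPKM, whereas FOXL2 and CYP19A1 were below 0.1 FPKM. Of 14 germ cell and pluripotency genes, POU5F1 averaged 4.597 ± 0.8399 FPKM and KIT 1.005 ± 0.376 FPKM, and NANOG, SOX2 and LIN28A were below 0.1 FPKM. POU5F1 has expressed pseudogenes, so its level is uncertain. Of 12 mesothelial genes 5 were members, led by KRT5, MSLN and CDH2 named above, and UPK3B, a uroplakin of mesothelium, averaged 4.93 ± 1.12 FPKM.

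ERBB2, which encodes the receptor tyrosine kinase HER2, was the 45th gene of all by level and the highest of 55 receptor tyrosine kinase genes. It had 383, 618 and 599.9 FPKM in Vector 1, 2 and 3, so Vector 1 was well below the other 2 libraries. The gene lies on chromosome 17, at chr17:39687914-39730426 on the plus strand of GRCh38. The 45 bases before its RefSeq start are shown because this is the receptor on which the line is best known, and because the heptamer CCGGAAG, a core recognised by ETS factors, occurs in them on both strands. Capitals mark CCGGAAG and its reverse complement CTTCCGG in chr17:39688049-39688093, plus strand, RefSeq GRCh38.p14.
ERBB2: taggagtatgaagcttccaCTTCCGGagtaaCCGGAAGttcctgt
The heptamer, on either strand, was in the 300-base promoter windows of 20.8% of the 8882 members with a RefSeq promoter, and 14.4% of all 15316 protein-coding promoters matched. A match is a description of the letters and not a bound site.

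The genes next to ERBB2 were also high. MIEN1, a small membrane-anchored protein whose gene overlaps the end of ERBB2 on the other strand, had 365, 492 and 438 FPKM in Vector 1, 2 and 3. Of its exon bases, 24.9% are shared with another gene. Without stated strand handling, its level and its low value in Vector 1 are therefore uncertain. STARD3, a cholesterol transporter of late endosomes, had 193, 161 and 126 FPKM. PPP1R1B, a phosphatase inhibitor named here after its values were seen, had 238, 179 and 175 FPKM. GRB7, an adaptor that binds HER2, averaged 35.6 ± 5.54 FPKM, PGAP3, a lipid remodelling enzyme of GPI anchors, averaged 52.7 ± 8.12 FPKM, and PNMT, which makes adrenaline, had 64.8, 46.4 and 26.5 FPKM, the widest spread of the driver list. On the far side IKZF3, a lymphoid factor, was below 0.1 FPKM. The neighbours did not move together between libraries: ERBB2, MIEN1 and MED1, a Mediator subunit at 9.14, 18.9 and 21.7 FPKM, were lowest in Vector 1, whereas STARD3, PNMT, GRB7, PGAP3 and TCAP, a muscle titin binder averaging 15.6 ± 2.21 FPKM, were highest there. In the window of 600 kb to each side, 25 of 34 protein-coding genes were members. The highest of them by mean was the ribosomal protein gene RPL19, at 798, 554 and 579 FPKM. ERBB2 was above it in Vector 2 and Vector 3 and their ranges overlapped, so their order is not settled.

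**Figure D3:**
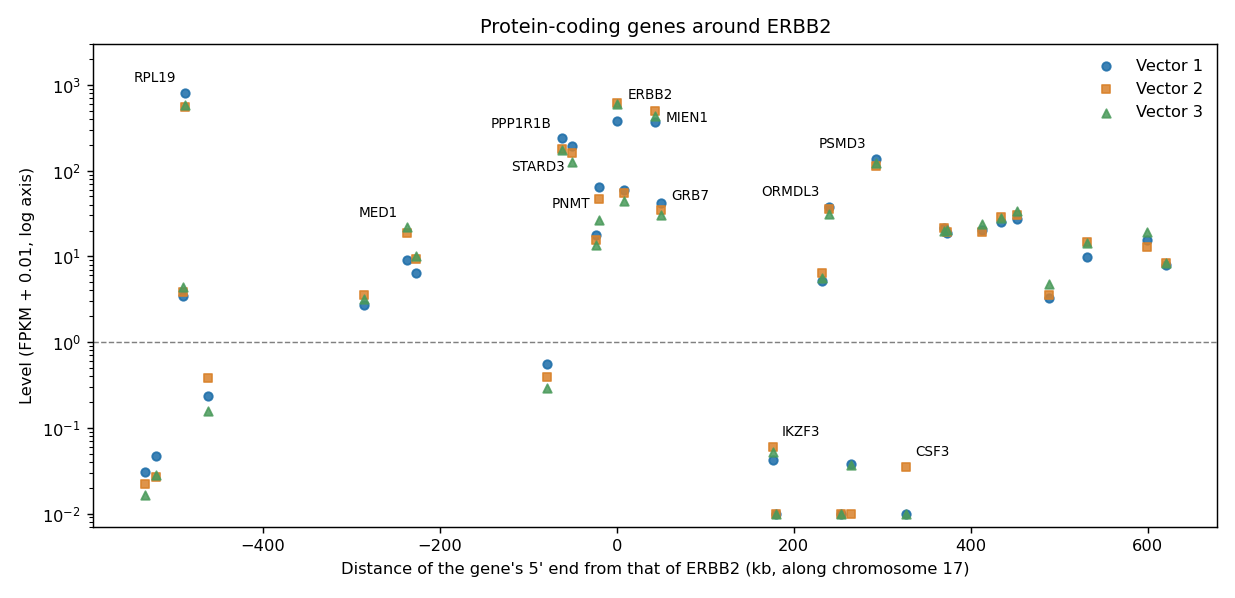
Level of the 34 protein-coding genes around ERBB2 in each Vector library (FPKM + 0.01, log axis, dashed line at 1 FPKM) against the distance of their 5' ends from that of ERBB2. RPL19, ERBB2 and MIEN1 are at 365 FPKM or more in every library, and IKZF3 lies below 0.1 FPKM.

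At the short arm of chromosome 9, the cell cycle inhibitor genes CDKN2A and CDKN2B were at 0 in all 3 libraries. A count of 0 allows up to 0.0439, 0.0389 and 0.0424 FPKM for CDKN2A in Vector 1, 2 and 3, from a limit of 3 fragments per library that covers counting error only. MTAP, the methylthioadenosine phosphorylase next to them, was a member with 1.86, 2.62 and 2.47 FPKM, and KLHL9, an adaptor of a ubiquitin ligase further out and named here after its values were seen, had 4.52, 5.62 and 5.59 FPKM. Among 25 protein-coding genes within 1500 kb, 15 were at 0, most of them interferon alpha genes. Of the other driver genes, CCND1, the cyclin of early G1, averaged 60.6 ± 14.8 FPKM, MYC averaged 34.1 ± 4.69 FPKM, and AKT1, a kinase of survival signalling, was the steadiest with 25.4, 26.2 and 26.1 FPKM.

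Of 339 receptor genes, 166 were members (49.0%) and the median was 0.944 FPKM, against 54.4% and 1.59 FPKM for all protein-coding genes. Receptor tyrosine kinases had 22 of 55 members. Below ERBB2 came EPHA2, an ephrin receptor, with 58.3, 87.6 and 74.6 FPKM, AXL, a receptor for GAS6, with 45.6, 43.6 and 78.9 FPKM, PTK7, a WNT coreceptor, with 36.7, 44.2 and 39.6 FPKM and MET, the receptor for hepatocyte growth factor, with 11.5, 22.7 and 21.8 FPKM. The ranges of EPHA2 and AXL overlapped, as did those of AXL and PTK7, so their order is not settled. EGFR had 7.88, 13.4 and 15.9 FPKM, and PTK7 stood above MET and EGFR in every library. KIT, the stem cell factor receptor, was the most variable member. ERBB4, ALK, the PDGF receptors PDGFRA and PDGFRB, and the NTRK genes were below 0.1 FPKM.

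Nuclear receptors had 24 of 48 members. The highest were orphan and lipid-sensing receptors: NR2F6 with 82.3, 65.5 and 65.95 FPKM, the liver X receptor NR1H2 with 40.6, 30.9 and 30.5 FPKM and the immediate-early gene NR4A1 with 40.9, 23.02 and 18.7 FPKM, which had the widest spread of this list. The retinoid partner RXRB and the clock repressor NR1D1 averaged 21.3 ± 2.70 and 21.2 ± 2.52 FPKM. Among the steroid receptors, NR3C1, for glucocorticoids, had 5.14, 6.77 and 7.699 FPKM and ESR1, for oestrogen, had 1.82, 2.45 and 1.997 FPKM. PGR, for progesterone, was below 0.1 FPKM, as was ESR2.

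Receptors for inflammatory ligands were present as a subset. TNFRSF12A, the receptor for TWEAK, led 14 members of 29 TNF receptor genes and was steady, with 213, 204 and 210.1 FPKM. TNFRSF1A, the main TNF receptor of non-immune cells, averaged 51.7 ± 5.88 FPKM, and TNFRSF10B, a TRAIL death receptor, 24.6 ± 3.26 FPKM, whereas TNFRSF1B was below 0.1 FPKM. FAS, another death receptor, was the most variable member with 1.92, 2.68 and 1.496 FPKM. Of 52 cytokine and interferon receptor genes 21 were members. The interferon gamma receptor chains IFNGR1 and IFNGR2 averaged 26.8 ± 6.90 and 16.4 ± 2.24 FPKM, and the chains for IL-4 and IL-13, IL13RA1 and IL4R, averaged 25.4 ± 1.97 and 15.6 ± 2.94 FPKM. IL6ST, the shared chain of IL-6 type receptors, averaged 14.5 ± 3.26 FPKM. IFNLR1, IL2RA, IL2RG and IL10RA were below 0.1 FPKM, and IL27RA varied most, with 3.14, 3.902 and 2.13 FPKM.

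Single adhesion and developmental receptor genes were high, while their lists differed. List medians were 1.42 FPKM for integrin chains, 14.8 FPKM for uptake and adhesion receptors and 2.99 FPKM for WNT, Notch and Hedgehog receptors. Over all protein-coding genes the median was 1.59 FPKM. Of 26 integrin chains 16 were members, led by ITGB1 with 173, 224 and 223 FPKM, ITGA3 with 107, 143 and 142 FPKM and ITGA6 with 35.3, 60.5 and 60.2 FPKM, a beta chain and laminin-binding alpha chains. ITGB4, the hemidesmosome partner of ITGA6, averaged 45.6 ± 11.04 FPKM. Of the 16, 12 were highest in Vector 2 and 3 in Vector 1, against 26.2% and 42.0% of all members. The leukocyte chain ITGB2 had the widest spread, with 3.13, 1.51 and 1.43 FPKM. Uptake and adhesion receptors had 25 of 26 members, headed by BSG, or basigin, with 446 ± 85.3 FPKM, the tetraspanins CD63 with 184 ± 36.3 FPKM and CD151 with 126 ± 33.9 FPKM, and the syndecans SDC1 with 112 ± 10.1 FPKM and SDC4 with 104 ± 10.99 FPKM. CD36 was below 0.1 FPKM. WNT, Notch and Hedgehog receptors had 15 of 22 members, with the Frizzled gene FZD2 steady at 44.7, 41.9 and 42.4 FPKM and NOTCH2 variable at 3.85, 7.59 and 8.39 FPKM.

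TGF-beta family receptors had 9 of 14 members, and TGFBR2, the ligand-binding receptor, led with 15.99, 23.4 and 19.5 FPKM. BMPR1A and ACVR1B, type I receptors for BMP and activin ligands, averaged 7.79 ± 0.604 and 7.095 ± 1.15 FPKM. AMHR2, the receptor for anti-Mullerian hormone, was below 0.1 FPKM. Of 57 G protein-coupled receptor genes 20 were members, and protease-activated receptors were high: F2RL1 had 18.7, 29.7 and 28.9 FPKM and F2R 14.03, 20.8 and 20.9 FPKM. ADRA2C, an adrenaline receptor, averaged 19.6 ± 2.15 FPKM, and LPAR1, a receptor for lysophosphatidic acid, 7.79 ± 1.07 FPKM. P2RY6, a nucleotide receptor, had the widest spread with 2.91, 6.11 and 3.802 FPKM.

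Of 318 transcription factor genes 213 were members (67.0%), with a median of 4.57 FPKM, against 54.4% and 1.59 FPKM for all protein-coding genes. The highest was ID1, an inhibitor of basic helix-loop-helix factors and the 18th gene of all, with 2031, 1266 and 1427 FPKM in Vector 1, 2 and 3. Its relatives ID3 and ID4 averaged 181 ± 85.1 and 90.6 ± 19.8 FPKM, and HES1, a Notch-responsive repressor, had 216, 190.4 and 178 FPKM. HIF1A, the hypoxia-inducible factor, averaged 117 ± 19.4 FPKM, and the circadian repressor BHLHE40 164 ± 7.98 FPKM. ID1 and ID3 were both highest in Vector 1, while HIF1A was lowest there.

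Immediate-early factors were high in a culture with no named stimulus. JUNB had 758, 566 and 469 FPKM, FOS 353, 259 and 248 FPKM, JUN 165, 171 and 187 FPKM and JUND 209.9, 134 and 156 FPKM, all subunits of AP-1. ATF4, the factor of the integrated stress response, averaged 139 ± 13.3 FPKM. JUNB and FOS stood above JUN in every library, and 25 of 29 genes of this list were members. BATF3 varied most, with 2.78, 1.88 and 1.47 FPKM. Of the C/EBP genes, CEBPD had 164, 99.2 and 56.6 FPKM and CEBPB 106, 75.6 and 78.8 FPKM; CEBPD, a factor of acute-phase responses, had the widest spread of its list, a CV of 50.8%. RELA, a subunit of NF-kB, averaged 35.3 ± 2.16 FPKM, a CV of 6.10%. RELB, a subunit of the alternative pathway, had 15.7, 15.3 and 6.79 FPKM and was low in Vector 3 alone.

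HOX genes differed by cluster. Of 10 HOXB genes 9 were members, with a median of 20.2 FPKM, and of 10 HOXC gene rows 1 was, with 7 below 0.1 FPKM. The other clusters were mixed: 5 of 11 HOXA genes and 3 of 9 HOXD genes were members, with medians of 0.433 and 0.656 FPKM. HOXB7 had 93.3, 65.4 and 59.4 FPKM in Vector 1, 2 and 3, HOXB6 64.0, 55.0 and 55.2 FPKM and HOXB8 55.2, 40.1 and 47.9 FPKM. HOXB2 and HOXB5 averaged 45.8 ± 7.29 and 20.3 ± 3.19 FPKM. The ranges of HOXB7 and HOXB6 overlapped. HOX genes overlap antisense transcripts and, for HOXB6, 33.1% of exon bases are shared with another gene, so without stated strand handling its level is uncertain. HOXA5, at 4.38, 2.399 and 2.55 FPKM, varied most.

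Other families gave 1 or a few leading members. PAX8 was the 1 member of 9 PAX genes. SOX17, SOX4 and SOX12 led 6 members of 20 SOX genes, with 40.5, 25.7 and 23.7 FPKM. GATA6 led 3 of 6 GATA genes, and GATA3 and GATA4 were below 0.1 FPKM. ERF, a repressor, led 16 of 27 ETS genes with 31.2, 32.3 and 34.4 FPKM, followed by ETS2 with 22.7 FPKM and ELK1 with 20.2, 19.9 and 20.5 FPKM. ETV4 varied most, with 5.33, 10.7 and 6.63 FPKM. FOXF2 and FOXD1, factors of mesenchymal development, led 19 of 29 forkhead genes with 28.6 ± 2.93 and 26.9 ± 3.49 FPKM, and the proliferation factor FOXM1 averaged 14.6 ± 0.683 FPKM. KLF6 and KLF5 led 15 of 21 KLF and SP genes with 69.01 ± 8.09 and 63.5 ± 10.5 FPKM.

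Factors of proliferation and signalling were broadly present. MYBL2, a cell cycle factor, led 18 of 22 E2F and MYC genes with 234, 168 and 156 FPKM, and E2F1 had 45.1, 35.2 and 50.9 FPKM. MXD3, a MYC antagonist, varied most with 16.4, 9.13 and 5.51 FPKM, and 40.5% of its exon bases are shared with another gene. STAT3, a factor of cytokine signalling, led 11 of 16 STAT and IRF genes with 38.5 ± 5.36 FPKM, and IRF7, which drives interferon genes, varied most with 16.1, 11.6 and 8.83 FPKM. YAP1 and WWTR1, effectors of the Hippo pathway, averaged 31.98 ± 5.69 and 22.3 ± 3.66 FPKM. All 21 ubiquitous promoter factors were members, from 2.84 to 60.7 FPKM, with THAP11 at the top and REST the most variable at 4.06, 6.32 and 6.39 FPKM.

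Of 272 housekeeping genes 259 were members (95.2%), with a median of 66.5 FPKM, against 54.4% and 1.59 FPKM for all protein-coding genes. The 4 classes kept their order in every library. Medians in Vector 1, 2 and 3 were 74.9, 59.6 and 64.0 FPKM for housekeeping genes, 4.07, 4.67 and 4.401 FPKM for transcription factors, 0.829, 0.978 and 0.866 FPKM for receptors and 0.451, 0.424 and 0.272 FPKM for lineage genes. No pair of classes overlapped in these ranges. The order depends on how the lists were chosen and is not a result about the line. Housekeeping lists hold genes of nearly every cell, whereas the lineage class pools 12 lists, including markers of absent cell types. Its list medians included 0.00964 FPKM for leukocyte genes, 5.57 FPKM for epithelial genes and 7.25 FPKM for HER2 region and driver genes. The median housekeeping gene stood above 94.7% of members and the median transcription factor above 40.2%, whereas the median receptor and lineage gene were below the 1 FPKM limit.

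Among the usual reference genes for quantitative PCR, EEF1A1, an elongation factor, had 1932, 1548 and 1501 FPKM in Vector 1, 2 and 3. GAPDH, a glycolytic enzyme, had 1066, 777 and 805 FPKM and ACTB, beta-actin, 943, 784 and 733 FPKM. All 3 were highest in Vector 1, as were 14 of the 21 genes on this list. GUSB, a lysosomal enzyme, was the steadiest with 11.8, 11.99 and 12.4 FPKM and a CV of 2.82%, and PGK1, a glycolytic kinase, the least steady with 245, 162 and 142 FPKM. Of 11 genes often proposed as uniformly expressed, RAB7A, a GTPase of late endosomes, had 115, 114 and 126 FPKM and CHMP2A, of the ESCRT machinery, varied most with 57.2, 42.1 and 35.9 FPKM. Other glycolytic genes were also high: ENO1, enolase, averaged 1165 ± 280.5 FPKM, LDHA 722 ± 123 FPKM and PKM 648 ± 66.7 FPKM, and HK1 was nearly level at 53.1, 52.1 and 51.8 FPKM. ACTG1, gamma-actin, led the cytoskeletal list with 2173, 1704 and 1431 FPKM.

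Cytosolic ribosomal protein genes moved as a block between libraries. Of 79, 78 were members, with a median of 197 FPKM, and 76 of the 78 were highest in Vector 1. They took 5.97% of assigned fragments in Vector 1, against 4.49% and 4.72% in Vector 2 and Vector 3. RPS12 had 1016, 649 and 763 FPKM in Vector 1, 2 and 3, RPL41 896, 609.9 and 664 FPKM and RPL19 798, 554 and 579 FPKM. The list's median deviation from the mean of the libraries was 0.31, -0.19 and -0.12 in Vector 1, 2 and 3 on the log2(FPKM + 1) scale, and 0.21, -0.14 and -0.08 after the shift shared by genes of like exon length was taken out. Proteasome core genes behaved alike: 16 of 17 were members, and all 16 were highest in Vector 1, with deviations of 0.34, -0.22 and -0.10. After the shift of genes of like exon length was taken out, these deviations were 0.22, -0.16 and -0.05. PSMA7, an alpha subunit, had 334, 224 and 272 FPKM, and PSMB10, a subunit induced by interferon, varied most with 11.6, 6.78 and 4.095 FPKM. The aminoacyl-tRNA synthetases, which charge tRNAs, had another pattern: 15 of 20 were highest in Vector 3 and none in Vector 2, and all 20 were higher in Vector 3 than in Vector 2. Chaperones were similar, with 11 of 16 highest in Vector 3 and 15 of 16 higher there than in Vector 2; HSPA5, the chaperone of the endoplasmic reticulum, had 213, 174 and 303 FPKM. The cause of these patterns was not tested.

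Some housekeeping values cannot be taken at face value, because of copies or overlaps. EEF1G, an elongation factor subunit, was at 0 in all 3 libraries, and 99.9% of its exon bases are shared with another gene. U2AF1, a splicing factor, was at 1.37 FPKM and its near-identical copy U2AF1L5 at 1.09, 0.969 and 0.9796 FPKM in Vector 1, 2 and 3, against a median of 42.9 FPKM for the spliceosomal list. EIF3C had 11.8, 3.88 and 3.05 FPKM in Vector 1, 2 and 3 and its copy EIF3CL had 1.78, 19.7 and 1.76 FPKM, so the library in which each was highest differed. These genes are reported as uncertain.

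Start regions of ribosomal protein genes are shown because this list was high as a whole, and its genes are known to start transcription within a pyrimidine tract. Each line gives the 15 bases before and the 15 after the RefSeq start of GRCh38.p14, and capitals mark CTTTC on the strand of transcription. RPS12 lies at chr6:132814554-132814583 (plus), RPL41 at chr12:56116618-56116647 (plus), RPL35 at chr9:124861943-124861972 (minus), RPS27 at chr1:153990747-153990776 (plus), and RPL13A, without the motif, at chr19:49487593-49487622 (plus).
RPS12: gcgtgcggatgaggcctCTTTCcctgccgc
RPL41: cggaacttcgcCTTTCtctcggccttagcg
RPL35: agccccgcctacttcctCTTTCcctcggag
RPS27: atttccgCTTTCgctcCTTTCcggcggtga
RPL13A: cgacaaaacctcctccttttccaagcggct
CTTTC was in this window for 3.78% of the 8882 members with a promoter and 3.95% of all 15316 promoters matched, which are 76.9% of protein-coding genes, so no comparison with all genes is drawn from any of these shares. For the ribosomal protein list itself the check is void, because only 63 of 79 genes had a RefSeq promoter, under 80%. Of those 63, 28 (44.4%) held CTTTC in this window. The lines shown are mostly genes with the letters, so they do not stand for the list. RPL19, named above, also lacks CTTTC there and is not shown. RPL35 averaged 480.1 ± 111 FPKM and RPS27 365 ± 78.2 FPKM, against 735 ± 147 FPKM for RPL13A, whose window lacks the letters.

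A TATA box was looked for in the same promoters, since it is the best known core element of strongly induced genes. The letters TATAAA, searched on the strand of transcription from 40 to 21 bases before the start, were in 1.45% of the 8882 members with a promoter and 3.61% of all 15316 promoters matched. By level, the share was 1.22% of 3283 promoters between 1 and 5 FPKM, 0.882% of 3630 between 5 and 20 FPKM and 2.04% of 1666 between 20 and 100 FPKM. Above 100 FPKM the check is void, because only 303 of 385 genes had a promoter. For genes below 1 FPKM it is void as well, with 6434 of 9067. The lines give the 45 bases before the start in RefSeq GRCh38.p14, with TATAAA in capitals, for ID1 (chr20:31605244-31605288, plus), S100A4 (chr1:153545807-153545851, minus) and JUNB (chr19:12791441-12791485, plus), named above.
ID1: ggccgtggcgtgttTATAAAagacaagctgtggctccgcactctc
S100A4: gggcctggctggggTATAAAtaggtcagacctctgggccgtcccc
JUNB: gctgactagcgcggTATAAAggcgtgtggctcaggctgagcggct
These 3 genes had mean levels of 1575, 1303 and 598 FPKM, and each was highest in Vector 1.

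The spread between libraries exceeded counting error for most members. The median CV was 15.1%, against a median of 4.34% that the number of fragments alone would give, and the CV was below its counting value for 9.64% of members. Without Vector 1 the median CV was 7.97%. For the same spread, a CV over 2 libraries is typically lower than one over 3. Part of the drop in every such pair of values, here and elsewhere, may therefore come from the smaller number of libraries. Vector 1 was the outermost of the 3 libraries for 81.5% of members, the highest for 42.0% and the lowest for 39.5%. By level, the median CV was 17.9% between 1 and 5 FPKM, 12.9% between 5 and 20 FPKM and 19.8% at 1000 FPKM or more. Without Vector 1 the highest genes had the smallest spread of these groups: the median CV was 10.4% between 1 and 5 FPKM, 6.78% between 5 and 20 FPKM and 4.29% at 1000 FPKM or more. Counting alone would give medians of 7.22%, 3.58% and 0.520% in these groups, so they differ in counting error too. The wide spread of the highest genes rested largely on Vector 1. By class, the median CV of members was 19.95% for lineage genes, 15.7% for receptors, 15.4% for transcription factors and 17.5% for housekeeping genes, against 14.1% for all protein-coding members. Without Vector 1 these medians were 9.54% for lineage genes, 9.28% for receptors, 8.37% for transcription factors and 6.25% for housekeeping genes, against 7.34% for all protein-coding members, so housekeeping genes were then the steadiest class of the 4. Housekeeping members also had the lowest median CV from counting alone, 1.45%. It was 3.27% for lineage genes, 3.74% for receptors and 3.40% for transcription factors. How much of the gap is counting error was not tested.

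**Figure D4:**
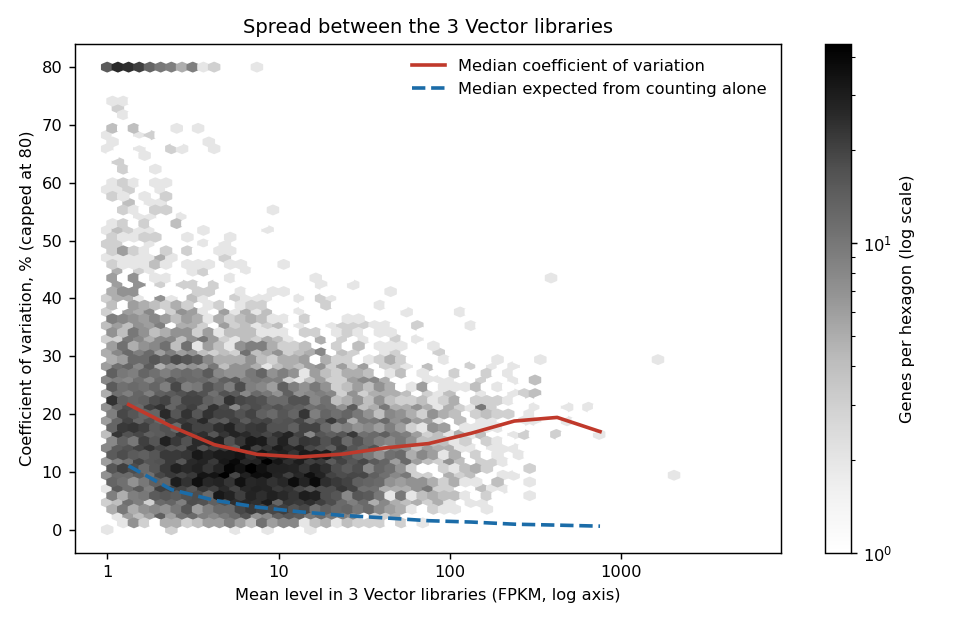
Coefficient of variation over the 3 Vector libraries (capped at 80%) against mean level (FPKM, log axis) for the 12541 members, shaded by the number of genes. The red line is the median and the dashed blue line the median expected from counting alone. Both are drawn only for level steps with enough genes and stop short of 1000 FPKM, and the red line stays above the blue one. The median CV was 17.9% from 100 to 1000 FPKM, against 12.9% between 5 and 20 FPKM. Without Vector 1 these were 6.60% and 6.78%.

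Deviations of Vector 1 varied with exon length, falling from the second shortest to the longest of 10 groups. In members with merged exons of 1158 to 2212 bases, the median deviation from the mean of the libraries was 0.20 in Vector 1 on the log2(FPKM + 1) scale, and in those of 9876 to 44677 bases it was -0.19. The shortest members, of 47 to 1157 bases, deviated less, by 0.09. Across 10858 protein-coding members, Spearman's rho between deviation and length was -0.577 in Vector 1, 0.448 in Vector 2 and 0.390 in Vector 3. This is a description across genes of the same libraries, the 3 deviations of a gene sum to 0, and genes are not independent replicates. Single genes did not all follow it. ERBB2, with 10321 exon bases, was lowest in Vector 1 and FTL, with 878, was highest there, but MIEN1, with 2292, was lowest and ANXA4, with 11048, highest there. The level of MIEN1 is uncertain, because 24.9% of its exon bases are shared with another gene. The labels give no RNA integrity, and what sets this pattern was not tested.

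**Figure D5:**
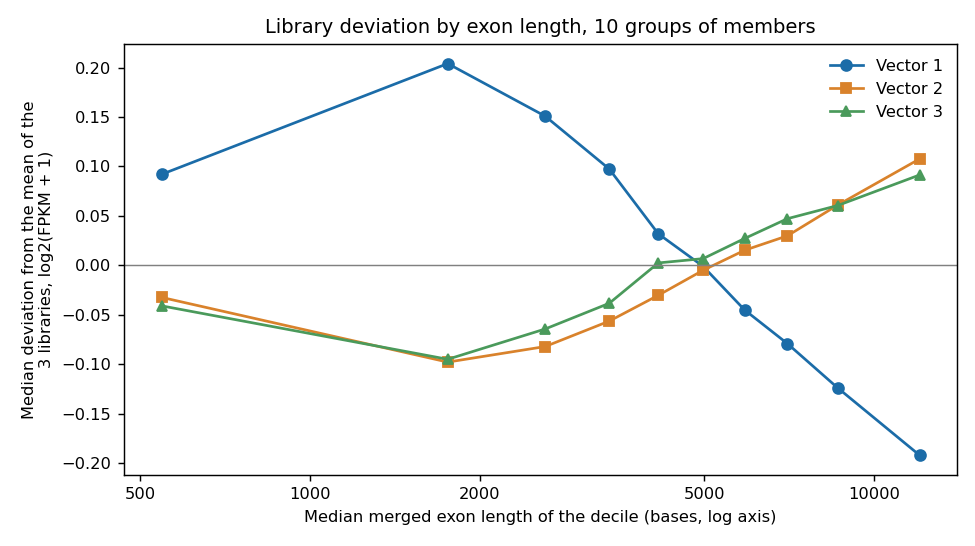
Median deviation of each Vector library from the mean of the 3, in log2(FPKM + 1), for 10 groups of members of increasing merged exon length (bases, log axis). Vector 1 is highest at 0.20 in the second shortest group and lowest at -0.19 in the longest, and Vector 2 and Vector 3 run the other way.

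The members of at least 5 FPKM with the largest CV included secreted defence proteins and interferon-induced genes. SLPI, a secreted protease inhibitor of mucosal surfaces, had 944, 413 and 232 FPKM in Vector 1, 2 and 3. PI3, or elafin, a related inhibitor, had 21.1, 7.78 and 3.50 FPKM, and SAA1, an acute-phase protein, 26.1, 4.37 and 1.31 FPKM. IFI6 and IFI27, both induced by interferon, had 70.5, 27.8 and 12.9 and 13.1, 5.71 and 3.41 FPKM. All 5 were highest in Vector 1 and lowest in Vector 3. The counting CV of SLPI was 1.39% and that of IFI6 4.36%, against CVs of 69.9% and 80.6%. Without Vector 1 the CVs of the 5 genes were lower, from 35.7% for IFI27 to 76.3% for SAA1, and still far above counting error. The other 5 of the 10 were EIF3C, EIF3CL, the pseudogenes RPL29P11 and MTX1P1, and MIR25, where shared sequence or few fragments make the values uncertain.

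The smallest CVs among genes of at least 5 FPKM lay under what counting error gives, and are extremes of many values. TERF1, which binds telomeres, had 5.92, 5.92 and 5.92 FPKM, BECN1, of autophagy, 12.6, 12.6 and 12.6 FPKM, and VPS26A, of the retromer, 45.98, 45.8 and 46.04 FPKM. The nuclear receptor RARG had 16.3, 16.2 and 16.4 FPKM. Their CVs, between 0.0421% and 0.576% over the 10 lowest genes, compare with counting CVs of 1.91% to 4.31%. TMEM167B, MMGT1, DDX51, VARS2, INTS1 and ANKLE2 were the others.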

How the data were processed

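Total RNA of SKOV3 cells was sequenced on an Illumina platform in 6 libraries, of which the 3 labelled Vector are described, grouped by title. For each library the authors deposited the FPKM of 58735 Ensembl genes. CASAVA 1.7, Bowtie and the mouse build mm8 are named in the submitters' processing notes, yet all 58735 identifiers are human and are in GENCODE 29, from which symbols, lengths and GRCh38 coordinates were taken. Which counter was run, with what strand setting and rule for shared reads, is not given in the sources used here. FPKM times merged exon length, divided by what 1 fragment is worth in that library, was a whole number of fragments in 100% of values above 0 (tolerance 0.05). The denominators were 96.3% of the assigned fragments in Vector 1, 103% in Vector 2 and 102% in Vector 3. The deposited FPKM were therefore not scaled to that total alone. Levels in Vector 1 are higher relative to the others than that total would give. Counting error is that of these fragments; without molecular identifiers it covers counting error only.

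Means, SDs, CVs, ranks and medians were computed in Python 3.11.15 with pandas 2.3.3 and numpy 2.4.6, and were tested on simulated data. With 1 group no test applies. Log values are log2(FPKM + 1). Members and lists were chosen with earlier results of these data known. Named genes are the 10 highest protein-coding genes, of each list up to 5 of the highest, the most variable member and those below 0.1 FPKM, a fixed set of lineage and driver genes, the 10 largest and 10 smallest CVs at 5 FPKM or more and the 3 genes on each side of 1 FPKM; some further list members were chosen after their values were seen. Some genes of the rule are not reported here. Promoters are RefSeq GRCh38.p14 windows of 250 bases before to 50 after the first listed start, matched by symbol for 15316 of 19921 protein-coding genes.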

Additional observations from a re-analysis of the deposited data

How the results depend on the processing

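No paired analysis was possible because the libraries form 1 group and no result comes from a test. The number of members was 7180 at a minimum of 5 FPKM, and between 12507 and 12606 when each library was left out in turn. The median CV was 31.2% with no filter on level, and between 7.97% and 14.97% with a library left out; the low value is the one without Vector 1, which also gives 4.29% in place of 19.8% at 1000 FPKM or more. The median SD of log2 values, 0.18 over the 3 libraries, was 0.13 with no filter and between 0.096 and 0.18 with a library left out. In TPM the class medians were 1.34 for lineage genes, 3.31 for receptors, 15.8 for transcription factors and 229.0 for housekeeping genes, which kept the same order; the median ratio of TPM to FPKM was 3.47. Over members alone they were 10.8 FPKM for lineage genes, 7.02 FPKM for receptors and 11.1 FPKM for transcription factors, so the order of these 3 classes changed, since this removes the low genes. At a minimum of 5 FPKM, 102 receptor genes were left. Ranked among genes of 5 FPKM or more, the median transcription factor was above 0% and the median housekeeping gene above 90.7% of them. Centring each library on its exon-length groups, chosen after seeing the data, gave a median CV of 13.0% and a median log2 SD of 0.15. Of the list results, quantile normalization moved 0 of 50 by more than the spread between libraries. Keeping members only moved 34 of 47, and ranking among genes of 5 FPKM or more moved 31 of 50. In TPM 65 of 66 levels moved, of lists and of single named genes together. That count follows from the change of unit, a median ratio of 3.47, and does not bear on the order of the lists. Counts of members were instead judged by a fixed ratio to the main count. By this rule a minimum of 0.5 FPKM moved 4 of 50 and a minimum of 5 FPKM moved 15 of 50. Of all members, 313 had fewer than 30 fragments over the 3 libraries, 311 of them not protein coding, and their levels and CVs are limited by depth.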

Other observations

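Members outside the protein-coding genes included copies of abundant genes and RNAs of the translation machinery. The 343 processed pseudogenes that passed 1 FPKM held 2.58% of all FPKM. RPS28P7, a copy of a ribosomal protein gene, was listed at 2338, 1459 and 1435 FPKM in Vector 1, 2 and 3, and EEF1A1P5, a copy of the elongation factor gene, at 224, 174 and 186 FPKM; reads of the parent genes and of the copies cannot be told apart here. RN7SL2, the RNA of the signal recognition particle, was listed at 1126, 1114 and 626 FPKM and was low in Vector 3.

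Among long noncoding RNAs, NORAD, which is known to bind Pumilio proteins and guard genome stability, had 51.1, 73.4 and 69.3 FPKM, and MALAT1, a nuclear RNA of splicing speckles, had 40.6, 53.98 and 50.6 FPKM. Both were lowest in Vector 1. GAS5, a host of small nucleolar RNAs, had 23.1, 20.2 and 29.9 FPKM and SNHG1, another such host, 32.2, 26.5 and 35.6 FPKM, both highest in Vector 3. The 85 miRNA genes counted as members had a median of 8 fragments over the 3 libraries, and their levels in libraries of this kind are not those of mature miRNAs. These genes were chosen after their values were seen.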
